A study of Mus musculus with 2 samples.

Results

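The genes described here are the homeobox and T-box patterning genes, the transcription factor families that carry positional and lineage identity in the embryo and in adult skin. The rule that chose them went by symbol and used no measured value, but it was set with earlier results of these data known. It took every array-annotated gene named Hoxa-, Hoxb-, Hoxc-, Hoxd-, Irx-, Dlx-, Six-, Pax-, Msx-, Lhx- or Tbx- with a number after it. Lhx2, Msx2 and Tbx1 were left out, and genes were read by probe sets annotated to exactly 1 gene. The rule found 78 of the 18194 genes, read by 131 probe sets. HOX proteins bind DNA with a homeodomain and lie in 4 clusters whose order along the chromosome follows the order of their expression along the body axis. Iroquois (Irx), Dlx, Msx, Six-family, Lhx and most Pax proteins also carry a homeodomain, whereas T-box (Tbx) proteins bind DNA with a domain of their own. In skin, such factors are known from the patterning of epidermis, hair follicles and dermis.

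The cells were CD34-positive epithelial cells sorted from mouse skin tumours. Mice received the carcinogen DMBA at postnatal days 23, 25 and 27, the tumour promoter TPA 2 times a week for several weeks, and DMBA again, 2 times, at 7 weeks of age. The control group was wild-type and the other was K14CreER:Rosa-VEGF-164, a line in which a Cre recombinase driven by the keratin 14 promoter can switch on a VEGF-164 transgene in basal epidermal cells. The age at tumour collection, the induction of Cre, and any pooling of tumours or animals are not stated in the labels or file used. There was 1 array per genotype, called here the control array for the wild-type sample and the VEGF-labelled array for the other, so each value is a single measurement, no test between genotypes was possible, and a difference between the 2 arrays is a difference between these 2 samples.

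Signals are anti-logged MAS5 values. A probe set counted as above background when it exceeded 19.8 on the control array or 11.3 on the VEGF-labelled array, a level under which 90% of the probe sets for odorant and pheromone receptors stayed. A gene took the value of its brightest probe set, ratios are the VEGF-labelled array over the control array, and a change of at least 2-fold was the fixed rule of size. Vegfa itself had a signal of 397 on the VEGF-labelled array against 804 on the control array, and its other probe set gave 127 against 302. Neither can be said to read or miss the transgene's transcript, so this gene does not check the genotype label. Keratinocyte markers were above background on both arrays for 8 of 8 genes, and Cd34 had a signal of 751 against 430. Fibroblast markers lay above background on both arrays for 8 of 9 genes, with a summed signal of 3523 on the VEGF-labelled array against 2799 on the control array.

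Of the 78 patterning genes, 33 were above background on both arrays, 2 only on the control array, 11 only on the VEGF-labelled array and 32 on neither. Each gene was read by its brightest probe set. A ratio or a bound could be given for 38. The remaining 40 are the 32 below background on both arrays and 8 that exceeded only the lower background of the VEGF-labelled array without exceeding that of the control array. Among the 38, 12 were lower by 2-fold or more on the VEGF-labelled array and 3 higher by 2-fold or more, where 8.53% of all 12199 genes with a ratio were lower by 2-fold or more and 3.87% higher by 2-fold or more. Differences of this size in either direction made up 12.4% of all genes. The members' median log2 ratio was -0.35, beside -0.04 over all genes, and this shift depended on the setting. After quantile and loess normalization, with 41 members having a value, the median was 0.04 and 0.05, beside 0.03 and 0.04 over all genes. With ratios centred on the median of all genes it was -0.31 beside 0. A stricter filter asked that the mean log2 signal of both arrays, not that of each, lie at least 4-fold above their mean background. Among the 15 members that passed it the median was -0.52, beside 0.04 over all such genes. The 12 lower genes were Irx1, Irx2, Irx4, Irx5, Dlx1, Dlx2, Dlx4, Dlx5, Hoxb3, Hoxc13, Pax3 and Pax5, and the 3 higher genes were Hoxa9, Hoxc9 and Msx3. For Pax5 and Hoxc9 the value is a bound, since each was above background on 1 array only.

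Low signals were lower in general on the VEGF-labelled array, and most of these genes are dim. Of the 38, 26 lay in the lowest class of signal, which held 5260 genes with a median log2 ratio of -0.27 and 15.3% lower by 2-fold or more, and 8 of the 26 were lower by 2-fold or more. In the middle class 3.44% of all genes and 2 of 8 members were lower by 2-fold or more. In the highest class 3.39% of all genes and 2 of 4 members, Irx2 and Irx5, were lower by 2-fold or more. When the background level of the control array was applied to both arrays, 10 members were lower by 2-fold or more and 3 higher, while 5.12% of all genes were lower and 3.87% higher by as much. The 2 members that dropped out were Pax3 and Pax5. The error available is the disagreement between probe sets of a gene: the SD of one such reading, on the log2 scale, was 0.50 in the lowest, 0.42 in the middle and 0.32 in the highest class. It leaves out the spread between mice, tumours and sorts.

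**Figure D1:**
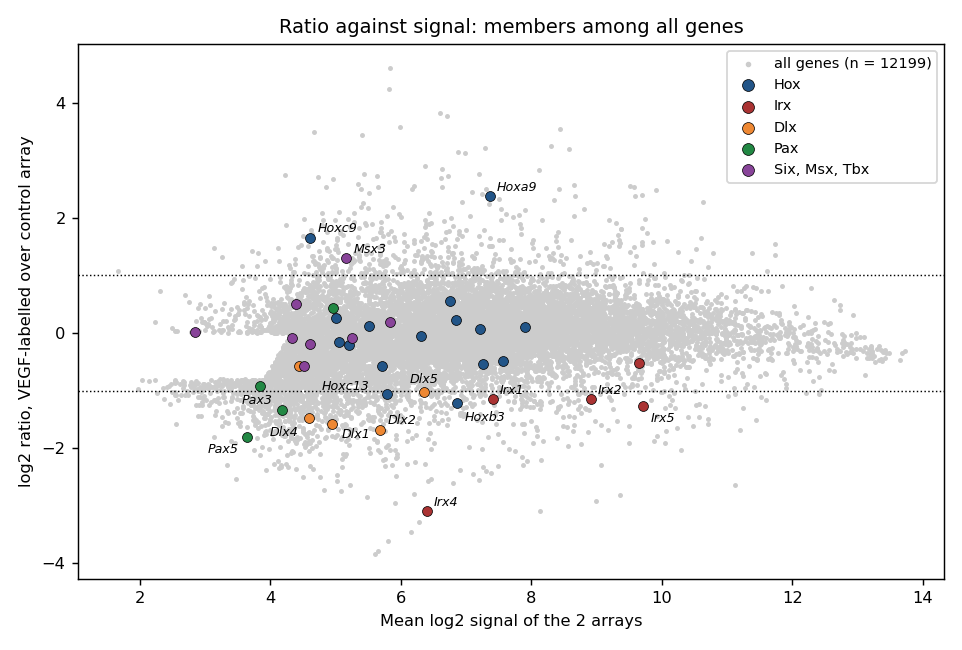
Log2 ratio of the VEGF-labelled array over the control array (y axis) against the mean log2 signal of both arrays (x axis) for the 12199 genes with a ratio or bound in grey and the 38 patterning genes in colour by family, with dotted lines at 2-fold. Irx2 and Irx5 lie below the lower line at high signal, Irx4 lies lowest of the patterning genes, and Hoxa9 lies highest.

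The Iroquois genes with a ratio were all lower on the VEGF-labelled array, and apart from Irx4 they were bright on both arrays. These genes encode homeodomain proteins of the TALE class, known for setting up territories in the embryo, and lie as 2 runs of neighbouring genes, Irx1, Irx2 and Irx4 in one and Irx3, Irx5 and Irx6 in the other. Of the 6, 5 were above background on both arrays, all 5 had a ratio below 0, and 4 were lower by 2-fold or more, with a median log2 ratio of -1.15. The share of all genes lower by as much was 8.53%. Irx4 had a signal of 246 on the control array and 28.9 on the VEGF-labelled array, 8.52-fold lower, a log2 ratio of -3.09. Only 0.05% of all genes with a ratio had a lower one.

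Irx5 had a signal of 1306 on the control array and 544 on the VEGF-labelled array, 2.40-fold lower. Irx2 had signals of 717 and 324, 2.21-fold lower, and Irx1 had 254 and 114, 2.22-fold lower. These 3 log2 ratios, -1.26, -1.15 and -1.15, lay within a single probe-set SD of one another, while that of Irx4 was further from 0 by several times the probe-set SD of 0.50 at its signal. Irx3 had 958 on the control array and 670 on the VEGF-labelled array, under 2-fold with a log2 ratio of -0.52. Irx6 was not above background on the control array (16.6) and had 12.99 on the VEGF-labelled array. So both runs held genes 2-fold apart, all 3 of the Irx1, Irx2 and Irx4 run and only Irx5 of the other. Each Irx gene was read by 1 probe set, so no second reading of the same transcript is at hand. In such sorted bulk samples, fewer cells of a type and less RNA per cell cannot be told apart.

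RefSeq start sites (GRCm38.p6) were listed for 50 of the 78 genes, too few for any summary of promoter sequence over the members. The 250 bases before the Irx3 start (chr8:91801655-91801904, minus strand) are shown because Irx3 was the bright Irx gene that stayed under 2-fold; for Irx4, the lowest gene, the 30 bases before the listed start (chr13:73260467-73260496, plus strand) are shown, a window inside the annotated gene. Capitals mark matches to any of 9 short motifs on either strand: the TATA box as TATAAA, the CCAAT box as CCAAT, the GC box as GGGCGG, a homeodomain core as TAATTA, a HOX-PBX site as TGATTNAT, the AP-1 site as TGANTCA, the E-box as CACGTG, the core of the hypoxia response element as ACGTG, which lies within the E-box, and the GLI site as GACCACCCA. A match is only a match of letters.
Irx3: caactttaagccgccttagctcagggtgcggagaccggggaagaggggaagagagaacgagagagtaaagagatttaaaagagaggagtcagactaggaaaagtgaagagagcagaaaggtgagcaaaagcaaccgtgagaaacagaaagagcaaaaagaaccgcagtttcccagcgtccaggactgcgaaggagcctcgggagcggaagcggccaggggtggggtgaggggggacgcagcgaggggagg
Irx4: cCACGTcacgccggtgcgggctcggctgac
The Irx3 window held none of the 9 motifs. The capitals in Irx4 are ACGTG on the opposite strand, a motif present within 250 bases of 16.6% of the 32817 listed starts. In the whole 250 bases before the Irx4 start GGGCGG also occurred at 2 positions, as it did at least once before 32.7% of all starts. The GC content of the 250 bases was 56.0% for Irx3 and 68.8% for Irx4, with a median of 52.4% over all starts.

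The Dlx genes, homeobox genes related to fly Distal-less, went the same way at lower signal. They come as neighbouring pairs, Dlx1 with Dlx2, Dlx3 with Dlx4 and Dlx5 with Dlx6, and Dlx3 is known for its part in epidermal differentiation and hair formation. Of the 6, 5 were above background on both arrays, all with ratios below 0 by the brightest probe set, and 4 were lower by 2-fold or more, with a median log2 ratio of -1.48, or -1.03 with the common background level. These 5 lay in the lowest class of signal, where 15.3% of all genes were lower by as much and the median was -0.27.

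Dlx2 had a signal of 92.3 on the control array and 28.8 on the VEGF-labelled array, 3.21-fold lower. Its neighbour Dlx1 had 53.3 and 17.9, 2.98-fold lower, or a bound of 2.69-fold with the common background level, under which the 17.9 lies. Dlx4 had 40.4 and 14.5, 2.78-fold lower, or 2.04-fold with the common background level, under which the 14.5 lies. The other Dlx4 probe set was below background on both arrays, at 3.95 and 1.69. The Dlx1 and Dlx2 log2 ratios, -1.58 and -1.68, differed by less than the probe-set SD of 0.50. Dlx5 had 116 and 57.3, only just past 2-fold at 2.03-fold, and was under 2-fold after quantile normalization (log2 ratio -0.94). Dlx3 had 26.5 and 17.9, a log2 ratio of -0.57, while its other probe set gave 0.12 as a bound, so its direction was not settled. Dlx6 was below background on both arrays, at 13.3 and 2.91. An offset of 50 added to both arrays, and 5.37 more to the VEGF-labelled array to match the array medians, shrinks differences of dim genes. In this setting 0 of the 6 Dlx genes and 0.791% of all genes were lower by 2-fold or more. All 6 Dlx ratios were below 0, that of Dlx6 included, because the setting applies no background level.

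The bases before the start of Dlx2 are shown because it had the lowest ratio of its family (chr2:71546755-71547004, minus strand, GRCm38.p6), with capitals as above.
Dlx2: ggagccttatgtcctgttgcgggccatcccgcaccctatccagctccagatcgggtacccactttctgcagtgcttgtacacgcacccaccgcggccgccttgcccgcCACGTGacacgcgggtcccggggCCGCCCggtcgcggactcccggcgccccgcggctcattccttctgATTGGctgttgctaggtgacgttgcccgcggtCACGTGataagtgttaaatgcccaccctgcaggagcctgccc
It held CACGTG, an E-box found within 250 bases of 6.02% of listed starts, at 2 positions that began 142 and 42 bases before the start. A CCAAT box on the opposite strand began 74 bases before the start; CCAAT was found before 33.8% of starts. Its GC content was 66.4%.

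**Figure D2:**
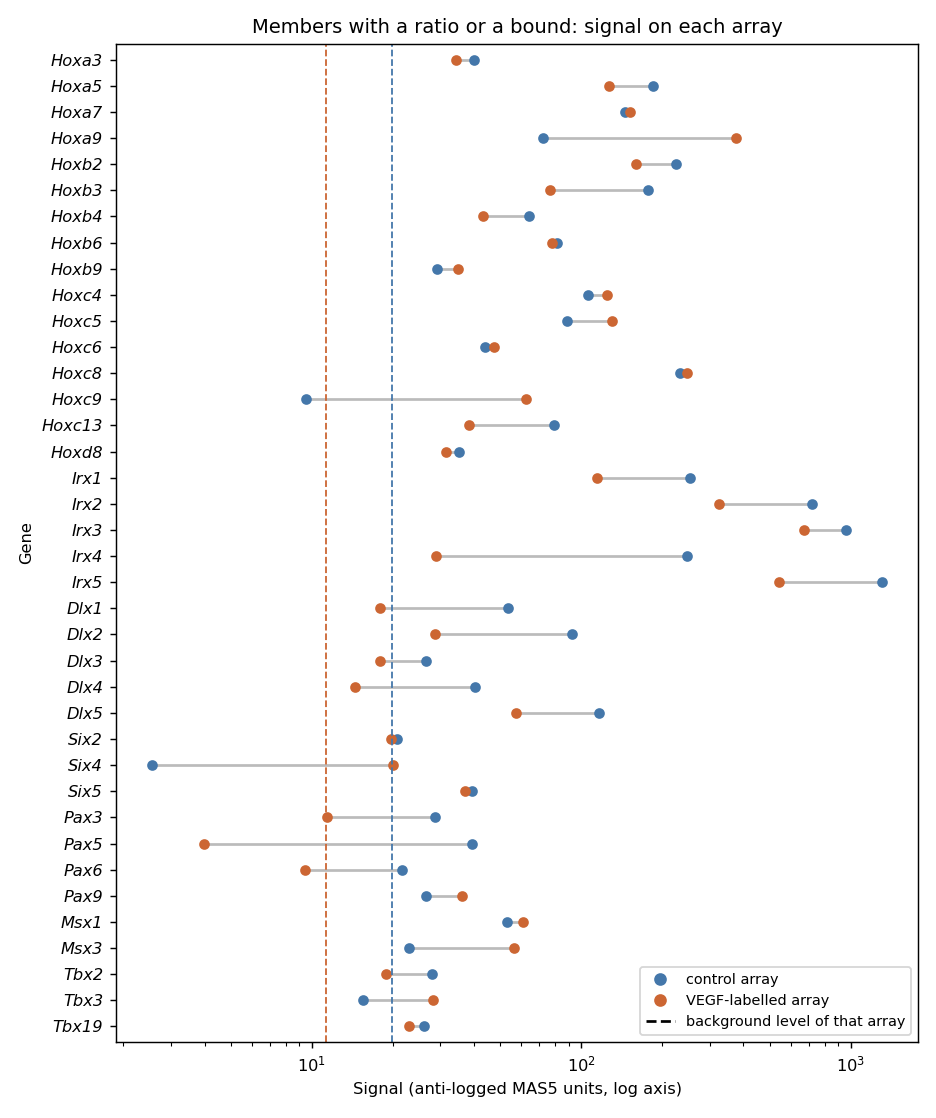
Signal on the control array (blue) and on the VEGF-labelled array (orange) for each of the 38 patterning genes with a ratio or a bound, on a log axis, with each array's background level as a dashed line. The orange point lies left of the blue one for all 5 Irx and all 5 Dlx genes, and far to the right for Hoxa9 and Hoxc9.

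The HOX genes showed no common shift. Of 33 in the annotation, 15 were above background on both arrays, 4 only on the VEGF-labelled array and 14 on neither. A ratio or bound could be given for 16, of which 8 were above 0 and 8 below (5 of 17 below after quantile or loess normalization), with 2 higher by 2-fold or more and 2 lower by 2-fold or more. Over all genes, 3.87% were higher and 8.53% lower by as much. The genes above background on both arrays came mainly from 3 clusters: 4 of 9 Hoxa, 5 of 9 Hoxb and 5 of 7 Hoxc genes, against 1 of 8 Hoxd genes, Hoxd8, at 35.2 and 31.5.

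The 2 higher genes belong to paralog group 9, the first of the group of HOX genes related to fly Abdominal-B, which pattern the posterior body. Hoxa9, known for its role in blood progenitors and leukaemia, had a signal of 72.1 on the control array and 375 on the VEGF-labelled array, 5.20-fold higher. Its other probe set went the same way, from 46.7 to 99.2, a log2 ratio of 1.09 against 2.38. The 2 probe sets therefore differ in size by more than their SD of 0.42, and both are past 2-fold. Hoxc9 was below background on the control array at 9.55 and had 62.3 on the VEGF-labelled array, at least 3.14-fold higher. Hoxb9 had 29.2 and 35.0, a log2 ratio of 0.26, within its probe-set SD. Hoxd9 had 17.5 and 13.8, not above background on the control array. The group 9 genes thus differed among themselves, with Hoxa9 and Hoxc9 apart from Hoxb9.

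No other posterior HOX gene was higher past 2-fold. Of the 14 genes in paralog groups 9 to 13, 8 were below background on both arrays, among them Hoxa10 (2.77 and 9.65), Hoxc10 (0.92 and 8.03) and Hoxd10 (0.77 and 5.06). Hoxc13, which drives hair keratin genes in the hair shaft and nails, went the opposite way to Hoxc9 of its own cluster, with 79.4 on the control array and 38.2 on the VEGF-labelled array. That is 2.08-fold lower, and under 2-fold after quantile or loess normalization (log2 ratio -0.88 in both). Of 5 markers of hair shaft and matrix with a ratio or bound, 4 were lower by 2-fold or more: Krt27, Krt28, Krt35 and Gata3. The share over all genes was 8.53%. With the common background level only Gata3 was, beside 5.12% of all genes. Foxn1 had 26.5 against 17.3, below background on the control array, a bound of 0.42 on the log2 scale. Its other probe set gave -1.08. Krt71 was above background only on the VEGF-labelled array, at 13.7 against 9.00. The summed signal over 9 genes was 149 against 339, of which Gata3 made up 75.4 against 205. The keratin genes Krt25, Krt31 and Krt33a were below background on both arrays. The part of these markers in the Hoxc13 value was not tested.

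At the other end of the clusters, Hoxb3, a gene of the hindbrain and pharyngeal region in the embryo, had 178 on the control array and 76.8 on the VEGF-labelled array, 2.31-fold lower. Its second probe set gave 56.6 and 24.9, a log2 ratio of -1.18 against -1.21, so both readings were alike. Its neighbours in the Hoxb cluster went the same way by less: Hoxb2 had 224 and 160 (log2 ratio -0.49), and Hoxb4 had 64.1 and 43.2 (-0.57, with its other probe set at -0.59). Hoxb6, at 81.1 and 77.8, was level. Of the 7 genes in paralog groups 1 to 3, 3 had a ratio, all below 0, while Hoxa3 was within its SD at -0.21.

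In the middle of the clusters, all genes with a ratio were within 2-fold. Of 12 genes in paralog groups 4 to 8, 9 had a ratio and 0 were 2-fold apart. Their log2 ratios by the brightest probe set ran from -0.57 to 0.56, with a median of 0.06. Hoxc6 had 0.12, with other probe sets at -0.68 and 0.06. Hoxc8 had 232 on the control array and 248 on the VEGF-labelled array, Hoxa7 had 146 and 152, and Hoxc4 had 106 and 125. Hoxc5 had 88.4 and 131, a log2 ratio of 0.56 with another probe set at 0.24, and Hoxa5 had 185 and 127, -0.54 with another probe set at -0.40. The Hoxa5 and Hoxc5 differences exceeded the probe-set SD of 0.42 by their brightest probe set only.

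**Figure D3:**
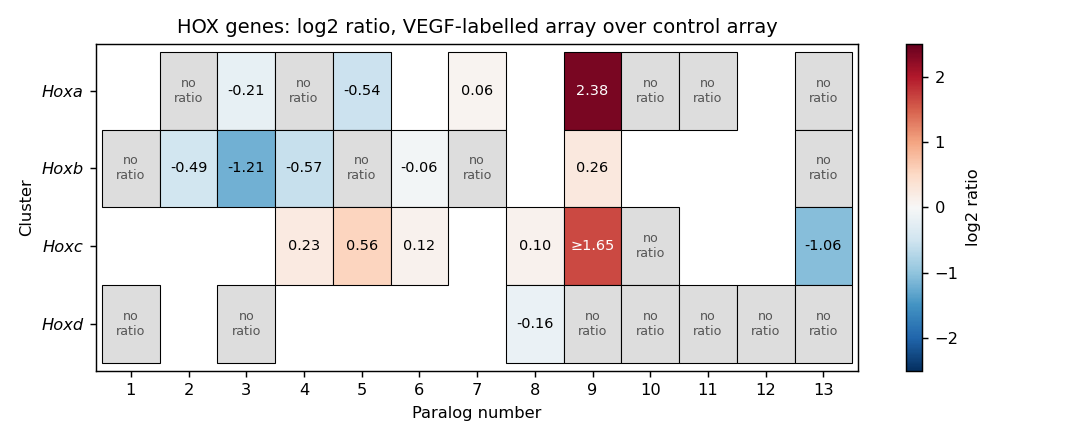
HOX genes of the annotation by cluster (rows) and paralog number (columns), coloured by the log2 ratio of the VEGF-labelled array over the control array, with the value in each cell, "no ratio" for genes without one and blank for genes not analysed here. Red cells stand in paralog group 9 (2.38 for Hoxa9, a bound of 1.65 for Hoxc9) and blue ones at Hoxb3 (-1.21) and Hoxc13 (-1.06).

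Dermal fibroblasts are known to keep HOX expression patterns, and fibroblast markers differed between the arrays as well. Of 9 fibroblast markers, 2 were higher by 2-fold or more, Col3a1 (1235 against 490) and Col1a2 (942 against 324), and 0 lower, with a median log2 ratio of 0.80. Over all genes, 3.87% were higher and 8.53% lower by as much. Pdgfra, whose product CD140a was stained for the sort, had 34.7 against 9.86. A total of 4 of the 9 had a ratio below 0: Postn, with 798 against 1595, Dcn (log2 ratio -0.34), Pdgfrb (-0.07) and Dpt (-0.01). The part of these cells in the Hoxa9 and Hoxc9 values was not tested. Tbx15 and Tbx18, T-box genes of dermal fibroblasts and dermal papilla, were below background on both arrays (12.99 and 4.98, and 3.05 and 8.08, wild-type first).

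The Msx genes encode homeodomain repressors downstream of BMP signalling. Msx1 was nearly equal, with 53.0 on the control array and 60.7 on the VEGF-labelled array, and its other probe set gave a log2 ratio of 0.28 against 0.19. Msx3, known from the dorsal neural tube, had 22.9 and 56.3, 2.46-fold higher. The wild-type signal lay just above the background of 19.8 and a single probe set read the gene, so the size rests on a dim value. The 250 bases before its start (chr7:140049089-140049338, minus strand, GRCm38.p6) are shown because it was the only member outside the HOX clusters that was higher by 2-fold or more.
Msx3: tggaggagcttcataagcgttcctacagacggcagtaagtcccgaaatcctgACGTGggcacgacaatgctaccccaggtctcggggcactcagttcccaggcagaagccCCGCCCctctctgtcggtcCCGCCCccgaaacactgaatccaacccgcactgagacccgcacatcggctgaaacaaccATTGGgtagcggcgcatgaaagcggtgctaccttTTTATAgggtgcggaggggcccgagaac
It held a TATA box on the opposite strand, a motif found before 12.4% of listed starts, and GGGCGG on the opposite strand at 2 positions.

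Paired box genes were dim, and their differences rested on the background level. Pax3, a factor of melanocyte and muscle precursors, had 28.6 on the control array and 11.35 on the VEGF-labelled array, 2.52-fold lower. The 11.35 lies at the background level, and with the common level the log2 ratio was -0.53. Its other probe sets were above background only on the control array and gave bounds of -1.07 and -0.86 on the log2 scale. Melanocyte markers were lower on the same array: Dct had 53.6 against 153 and Tyrp1 41.4 against 88.0, 2 of the 5 with a ratio were lower by 2-fold or more and 0 higher, and their summed signal over 7 genes was 221 against 409. The share of all genes lower by as much was 8.53%. Sox10 went the other way, with 33.7 against 18.4, below background on the control array, a bound of 0.76 on the log2 scale, although its other probe set gave -1.20. Their part in the Pax3 value was not tested. Pax5, the B-cell identity factor, had 39.5 on the control array and 3.97, below background, on the VEGF-labelled array, at least 3.48-fold lower. With the common level the bound was 1.99-fold. Its other probe set was below background on both arrays, at 2.95 and 0.56, and the B-cell marker Cd79a was as well, at 2.19 and 0.88. Pax9, a factor of the oral epithelium, teeth and thymus, had 26.6 and 36.1, a log2 ratio of 0.44, with another probe set at 1.07 as a bound. Pax6, the eye factor, was above background only on the control array, at 21.6 against 9.40, and Pax8 only on the VEGF-labelled array, at 17.9. Pax1, Pax4 and Pax7 were below background on both arrays.

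**Figure D4:**
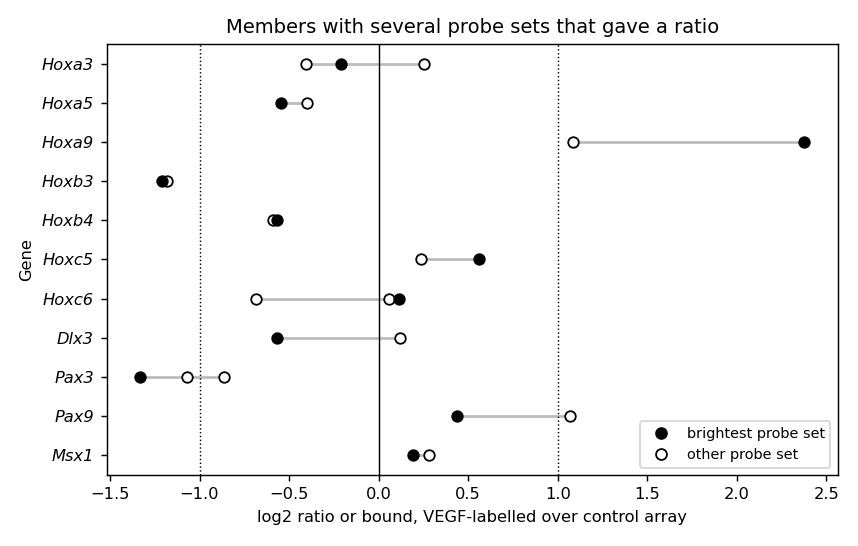
Log2 ratio or bound of each probe set (x axis) for the 11 patterning genes with more than 1 probe set that gave one, the brightest filled and the others open, with dotted lines at 2-fold. The Hoxb3 and Hoxb4 points nearly coincide, both Hoxa9 points lie past 2-fold, and the points of Hoxa3, Hoxc6 and Dlx3 fall on both sides of 0.

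Among the 11 genes with more than 1 such probe set, 3 had probe sets on both sides of 0, Hoxa3, Hoxc6 and Dlx3, and none of these was 2-fold apart by any of them. Hoxa9 and Hoxb3 were the genes whose probe sets were all at least 2-fold apart.

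T-box, Six-family and LIM homeobox genes were mostly below background. Of 11 Tbx genes, 7 were below it on both arrays, and 0 were 2-fold apart by the brightest probe set. Tbx20, a heart gene, had no ratio by that probe set (13.8 and 12.4), but another had 25.7 on the control array and 2.20, below background, on the VEGF-labelled array, at least 2.27-fold lower. Tbx2 had 28.0 on the control array and 18.8 on the VEGF-labelled array (log2 ratio -0.57), Tbx19 had 26.1 and 22.9 (-0.19, and 0.19 after quantile normalization), and Tbx3, a factor of limb and mammary development, was above background only on the VEGF-labelled array, at 28.3 against 15.5. The limb genes Tbx4 and Tbx5 were below background, with Tbx5 at 16.3 and 2.86. Among 5 Six-family genes, which work with EYA coactivators, Six5 had 39.3 and 37.0 and Six2 had 20.8 and 19.6, both level. Six4 had 20.1 on the VEGF-labelled array and 2.56, below background, on the control array, which is no more than a bound of 1.01-fold. Six6 was below background on both arrays, and so was Six3 by its brightest probe set, while another Six3 probe set had 3.27 and 17.9, above background on the VEGF-labelled array. All 7 Lhx genes lacked a ratio. Lhx6 had 10.8 and 16.0 and Lhx4 had 7.01 and 13.8, above background only on the VEGF-labelled array, and the other 5 were below it on both arrays.

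The partner proteins of these factors were mostly above background and showed few differences of 2-fold. PBX and MEIS proteins bind DNA together with HOX proteins. Of 8 such cofactor genes, 5 had a ratio, all 5 below 0 by the brightest probe set, with a median of -0.70 and 0 at least 2-fold apart. Other probe sets went above 0 for 4 of the 5, such as 0.52 for Pbx3 and up to 0.28 for Pknox1. Meis2 had 202 on the control array and 114 on the VEGF-labelled array, a log2 ratio of -0.83 with other probe sets between -0.50 and 0.40. In the network of Six-family, EYA and DACH proteins, 1 of 5 genes with a ratio was lower by 2-fold or more by the brightest probe set. That was Dach1, a corepressor gene, at 176 and 46.6, 3.78-fold lower, with other probe sets between -1.56 and -0.78. The share of all genes lower by 2-fold or more was 8.53%. Ski, the brightest of that list, had 212 and 167. Eya3 had a log2 ratio of -0.11, with other probe sets between -1.23 and 0.13. LIM homeodomain cofactors had 9 genes with a ratio and 0 apart by 2-fold by the brightest probe set, with Lmo1 the brightest at 998 and 671, although other probe sets of Ssbp2 gave -1.23 and -1.22 and one of Rlim -1.12. Groucho and TLE corepressors had 5 with a ratio and 0 apart by 2-fold by the brightest probe set. Tle3 was the brightest at 516 and 439, with other probe sets between -1.20 and 0.11.

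Retinoic acid, which sets HOX expression in the embryo, gave the only partner list with genes higher by 2-fold or more. Of 14 genes of its synthesis, binding and response, 8 had a ratio or bound, 2 were higher by 2-fold or more and 1 lower by 2-fold or more, with a median of -0.04. Over all genes, 3.87% were higher and 8.53% lower by as much. Aldh1a3, a retinaldehyde dehydrogenase gene, had 30.3 on the control array and 178 on the VEGF-labelled array, 5.87-fold higher, although its other probe sets gave log2 ratios between 0.46 and 1.05. Crabp2, which encodes a carrier of retinoic acid to the nucleus, had 732 and 1500.0, 2.05-fold higher. The receptor gene Rara had 43.5 and 21.0, 2.07-fold lower. Of the caudal homeobox genes, Cdx1 and Cdx4 were below background on both arrays. Cdx2 was above it only on the control array, at 21.5 against 7.66. Its bound was -0.93 on the log2 scale, or -0.12 with the common background level.

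The direction of the 15 genes that were 2-fold apart was the same under all 10 other processing settings that gave a value, but the size was not. For a gene with 1 probe set and signals above every background level, most of these settings return the reported value by construction. Only the offset and the quantile and loess normalization could change it, apart from centring, which shifts all ratios alike. With the offset of 50 after matching of the array medians, 4 of the 15 were still 2-fold apart, Irx2, Irx4, Irx5 and Hoxa9, and log2 ratios such as those of Hoxc9 (0.98), Irx1 (-0.84), Hoxb3 (-0.78), Dlx2 (-0.76) and Msx3 (0.61) were under it.

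**Figure D5:**
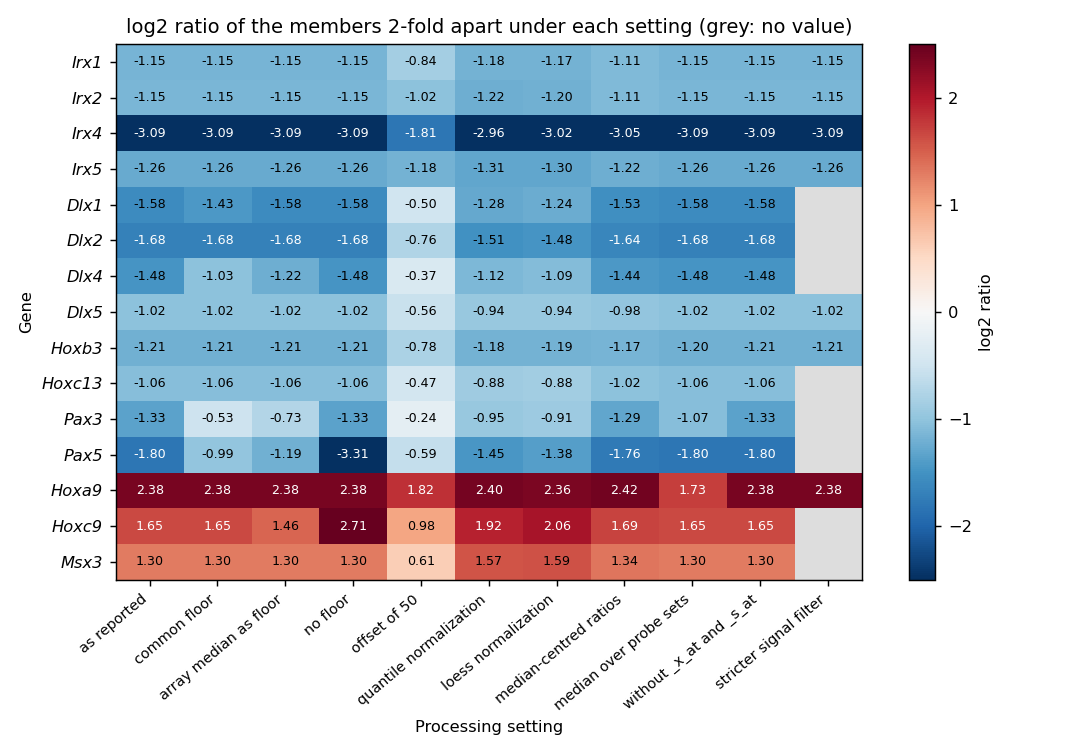
Log2 ratio of each of the 15 patterning genes at least 2-fold apart (rows) under each processing setting (columns), red for higher and blue for lower on the VEGF-labelled array and grey where a setting gave no value. Colours keep their direction in every row, and Irx4, Irx2, Irx5 and Hoxa9 stay past 2-fold in all columns. Values are palest with the offset of 50, except that Hoxa9 is palest with the median over probe sets.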

How the data were processed

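RNA of 1 sample of sorted tumour cells per genotype, wild-type and K14CreER:Rosa-VEGF-164, was hybridised to Affymetrix Mouse 430 2.0 arrays, from 100 ng of total RNA per sample, per the labels' protocols. The deposited values are on a log2 scale. MAS5 is the tool in the submitters' processing notes; its version, scaling target and detection calls are not stated in the labels or file used. MAS5 scales each array as a whole: the trimmed mean of the anti-logged signals was 100.04 on both arrays, while the median was 22.6 on the control array and 17.3 on the VEGF-labelled array. Affymetrix arrays have no read depth, and 1 array per group limits the precision.

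Of 45101 probe sets, 34958 were annotated to exactly 1 gene, 932 to several and 9211 to none. All 78 members matched the RefSeq gene table by gene ID, with 0 symbols changed. Background levels were the 90th percentile of 80 olfactory and vomeronasal receptor probe sets on each array. A gene above background on 1 array got a bound against the other array's level, and bounds under 1-fold were dropped. Classes of signal are tertiles of 4887 genes that had 2 or more probe sets over both background levels, and the SD is that of the difference of their 2 brightest probe sets over the square root of 2. Named genes were all members at least 2-fold apart, the 12 with the highest mean signal, the brightest of each family, and members whose probe sets went opposite ways with 1 of them 2-fold apart; of each partner list, genes 2-fold apart and the brightest. Other genes were named after their values were seen. The members and lists were chosen with earlier results of these data known. The calculation was tested on simulated data in which only bright genes were changed, by more than 2-fold. That test does not cover changes in dim genes or bounds. Analyses used Python 3.11.15, pandas 2.3.3 and statsmodels 0.14.6 (loess with a span of 0.3). A total of 10 other settings were tried. Marker lists without a value above are given here: endothelial markers had 5 of 8 genes with a ratio or bound and 0 at least 2-fold apart, leukocyte markers 4 of 8 and 0 apart, skeletal muscle markers 5 of 6 with 3 lower by 2-fold or more (1 with the common background level), and dermal papilla markers 4 of 8 with 1 higher and 1 lower. Of all genes, 8.53% were lower by as much, or 5.12% with the common level, and 3.87% higher.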

Additional observations from a re-analysis of the deposited data

Results flagged for a closer look

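A probe set annotated to both Hoxb8 and Hoxb7, and so left out of the values above, was above background on each array, at 129.5 on the control array and 66.97 on the VEGF-labelled array. Its log2 ratio was -0.95. The probe set annotated to Hoxb7 alone was below background on both arrays, at 1.75 and 2.61. The 2 probe sets annotated to both Hoxd4 and Hoxd3 were below background on both arrays.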

How the results depend on the processing

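No paired analysis was possible because each genotype had 1 array, and no array could be left out. As reported, 12 members were lower by 2-fold or more and 3 higher. Between 9 and 13 were lower and 3 higher with the common or median background level, quantile or loess normalization, centred ratios, the median over probe sets, or without probe sets ending in _x_at or _s_at. Without any background level and filter the counts were 24 lower and 11 higher of 78. With the offset of 50, for which 5.37 was also added to the VEGF-labelled array to match the array medians, they were 3 lower and 1 higher of 78. With the stricter signal filter (mean signal of both arrays at least 4 times their mean background) they were 6 lower and 1 higher of 15. Of all genes, 8.53% were lower by 2-fold or more as reported, 5.12% with the common background level and 0.791% with the offset. The share higher was 3.87% as reported and with the common level. For the other settings no share over all genes was calculated, so their counts of members have no such comparison. The median log2 ratio of the members was -0.35 as reported, beside -0.04 over all genes. It was 0.04 after quantile and 0.05 after loess normalization, which raise low signals on the VEGF-labelled array. With the offset and matched medians it was 0.05. Over all genes these medians were 0.03, 0.04 and 0.08 in that order. With the common background level, the median background level, centred ratios and the stricter filter it was -0.20, -0.49, -0.31 and -0.52. Over all genes these were -0.03, -0.03, 0 and 0.04. The median over probe sets gave -0.22 beside -0.07, and no background level gave -0.27 beside -0.08. Without probe sets ending in _x_at or _s_at it was -0.31 beside -0.02. All 15 genes 2-fold apart kept their direction under every setting that gave a value, and 4 of them, Irx2, Irx4, Irx5 and Hoxa9, stayed at least 2-fold apart under each. Of 257 values of named members under other settings, 18 moved by more than the probe-set SD and 9 had the opposite sign, all of Hoxd8, Six5 and Tbx19 after quantile or loess normalization or with the offset, whose reported log2 ratios lay within 0.19 of 0. Many of the 257 values equal the reported one by construction, so these counts overstate how stable the values are. Dim signal limits most members: 15 of 78 passed the stricter filter.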
